A study of Mus musculus with 6 samples.

Results

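The genes described here are 40 genes of the cell cycle, taken by name from 24394 gene symbols in the deposited tables. They comprise 24 mitotic genes, 15 genes of S phase and DNA replication, and the G1 cyclin Ccnd1. Their transcripts were measured by RNA sequencing in bone marrow-derived macrophages (BMMs) of C57BL/6 mice at postnatal day 28, grown from marrow cells for 7 days in 50 ng/ml M-CSF. The 3 control cultures received no cartilage. The other 3 cultures received cartilage fragments, prepared by the submitters from femoral heads, at 5 fragments per macrophage for 24 h. No genetic change is named for either group, and the methods name no M-CSF for the medium of the final day. The question was which transcripts differed between macrophages exposed to cartilage fragments and control macrophages, asked here of the machinery that copies DNA and divides the cell.

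Bone marrow-derived macrophages proliferate while M-CSF signals through its receptor Csf1r, and D-type cyclins carry that signal to the cell cycle. Cyclin D with CDK4 or CDK6, then cyclin E with CDK2, inactivate the retinoblastoma family and free E2F factors, which switch on the genes of S phase. Mitotic genes follow in G2, and the DREAM and MuvB complexes act on many of them through a short element called the cell cycle genes homology region (CHR), often beside CCAAT boxes that bind NF-Y. CDK inhibitors such as Cdkn1a (p21) hold the cycle back.

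Some motifs were not equally frequent in the promoters of the S-phase and the mitotic genes, though many members held none of them. The stretches of 6 members with motif matches are shown. They were read from RefSeq windows on GRCm38.p6 and end at or before the transcription start. In the 3 Mcm genes, capitals mark E2F-type letters (TTTGGCGC, TTTCCCGC, TTTGCCGC or TTTCGCGC, on either strand). In Cdk1, Mki67 and Ccnb2, capitals mark TTTGAA (CHR) and CCAAT, on either strand. The stretches lie at chr1:128359733-128359827 (Mcm6, minus strand), chr8:75109344-75109379 (Mcm5, plus strand), chr5:138172029-138172060 (Mcm7, minus strand), chr10:69352913-69353132 (Cdk1, minus strand), chr7:135716460-135716579 (Mki67, minus strand) and chr9:70421559-70421733 (Ccnb2, minus strand). In Mcm6 and Mcm5, matches on opposite strands overlap, which gives the longer capital runs.
Mcm6: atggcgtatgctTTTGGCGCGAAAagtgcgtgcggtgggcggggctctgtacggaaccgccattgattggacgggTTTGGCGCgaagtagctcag
Mcm5: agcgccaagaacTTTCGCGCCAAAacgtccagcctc
Mcm7: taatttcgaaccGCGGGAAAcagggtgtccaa
Cdk1: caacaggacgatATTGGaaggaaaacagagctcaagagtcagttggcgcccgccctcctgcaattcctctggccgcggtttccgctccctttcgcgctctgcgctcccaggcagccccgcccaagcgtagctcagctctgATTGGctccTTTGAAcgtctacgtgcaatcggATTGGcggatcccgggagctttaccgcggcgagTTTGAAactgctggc
Mki67: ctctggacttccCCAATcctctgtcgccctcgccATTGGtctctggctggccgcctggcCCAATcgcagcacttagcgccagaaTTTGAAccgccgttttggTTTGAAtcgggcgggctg
Ccnb2: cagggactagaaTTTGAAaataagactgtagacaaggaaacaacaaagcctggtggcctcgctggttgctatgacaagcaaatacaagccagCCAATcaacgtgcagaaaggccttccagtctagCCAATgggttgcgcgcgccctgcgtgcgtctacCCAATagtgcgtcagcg

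A promoter window was at hand for 32 of the 40 members, and the 250 bases before each start were searched. Both TTTGAA and CCAAT were present in 8 of 20 mitotic genes (40%), namely Ccnb2, Cdc20, Cdk1, Kif11, Mki67, Prc1, Top2a and Ube2c. The same pair was present in 1 of 12 S-phase genes, Mcm2, and in 6.45% of all 27025 genes with a window. CCAAT, with or without TTTGAA, was found in 17 of the 20 mitotic and 8 of the 12 S-phase genes, against 37.5% of all genes. An E2F-type match was present in 4 of the 12 S-phase genes (33.3%), Cdc6, Mcm5, Mcm6 and Mcm7, in 1 mitotic gene, Cdk1, and in 2.16% of all genes. TATAAA, the letters of a TATA box, was found in none of the 32 members and in 14.3% of all genes. Further genes of the same machinery, described below, differed less. In 45 replication and 53 mitotic genes, the pair stood at 8.89% and 30.2% and the E2F-type letters at 17.8% and 9.43%. TTTGAA stood at 17.8% and 37.7%, so the replication genes held it as often as the E2F-type letters. These are matches of letters in a window of sequence, and binding was not measured.

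**Figure D1:**
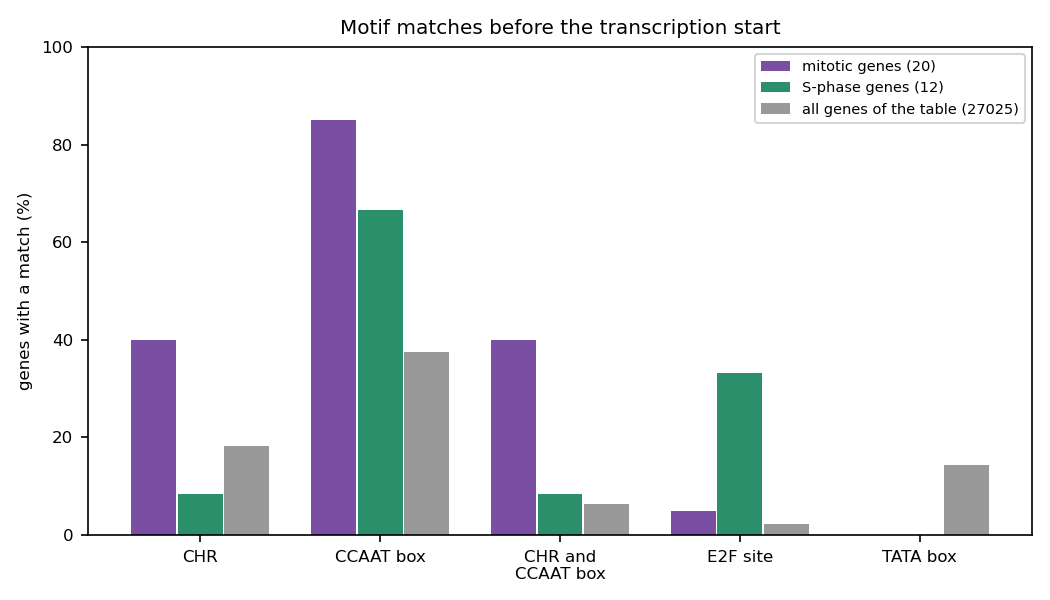
Share of genes (%) with at least 1 match in the 250 bases before the transcription start, for 20 mitotic genes, 12 S-phase genes and all 27025 genes with a RefSeq window. CHR with CCAAT stands at 40% of the mitotic genes and 8.33% of the S-phase genes, while the E2F-type letters stand at 5% and 33.3%.

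Levels are given as FPKM, fragments scaled to transcript length and to the library total, so that levels can be compared between genes of unequal length. The deposited coverage and FPKM corresponded to 735000 to 769000 fragments in the control libraries and 692000 to 747000 in the libraries with cartilage fragments, far fewer than the reads that the methods state, for a reason that the files do not show. The fragment numbers and their intervals rest on this estimate. All 40 members together held about 2274 fragments in the 6 libraries. Only 6 of the 28 tested members reached 100 fragments in all libraries together, and 17 had fewer than 50. Some transcripts that every cell uses, among them 4 ribosomal protein genes, were listed at 0 in every library, so a member at 0 is reported as listed at 0 and not as silent.

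The levels were far apart. Pcna, the sliding clamp of the replication fork (chr2:132249286-132253180 on mm10), was read at 144, 137 and 181 FPKM in control macrophages and at 134, 142 and 130.4 FPKM with cartilage fragments. Its mean was 14.1 times that of Mcm6, the member next in order, and stood above 95.4% of the tested genes. Pcna held 48.6% of all S-phase fragments. The tested S-phase members had a median level of 4.91 FPKM and the tested mitotic members one of 2.32 FPKM. The highest mitotic gene was Mki67, the proliferation marker Ki-67. Cdc20, Ccne2 and Gins2 were listed at 0 in all 6 libraries, another 13 members were listed at 0 in some, and 24 were above 0 in all.

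**Figure D2:**
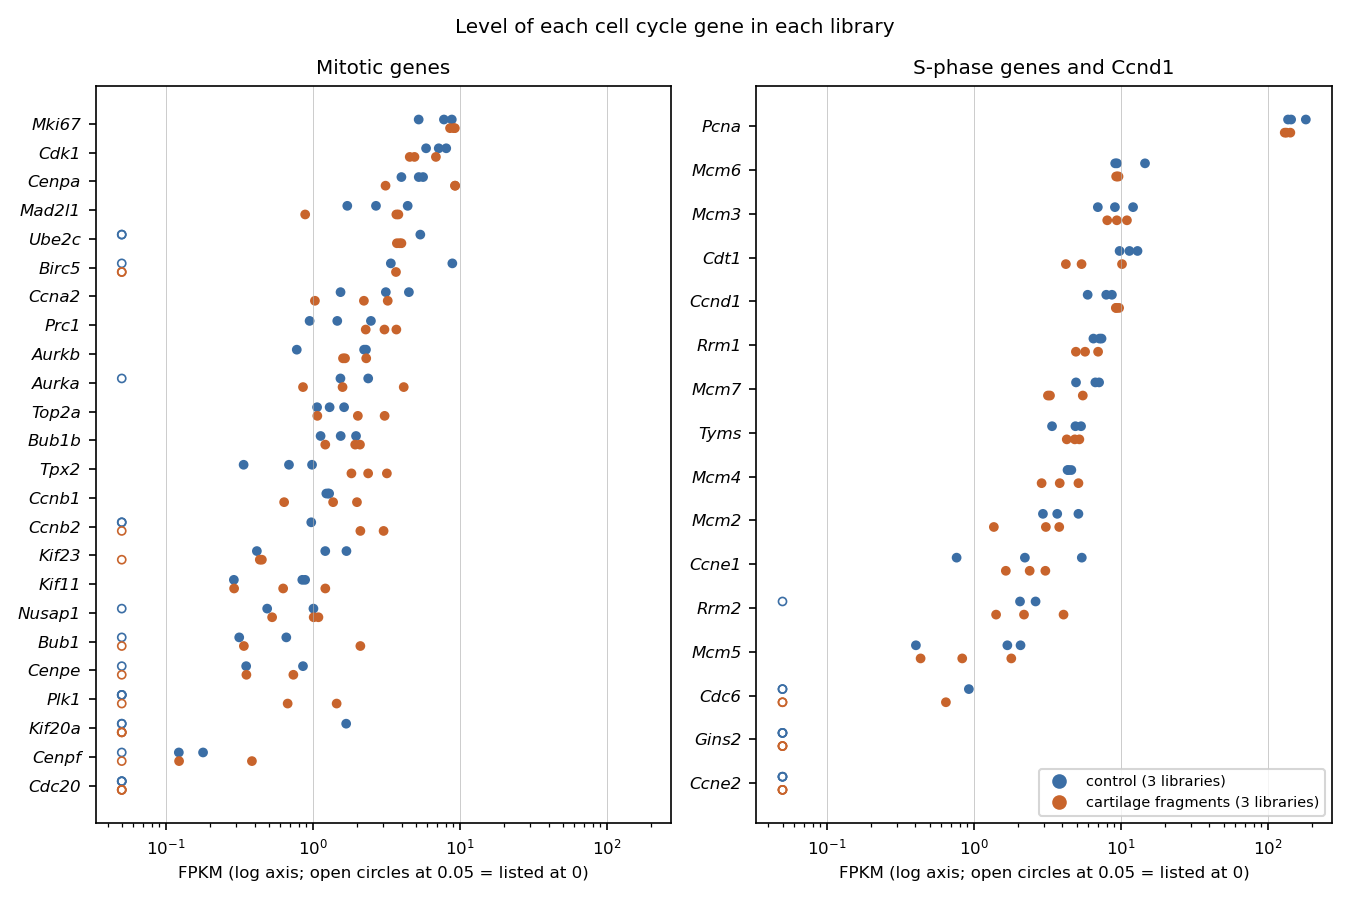
FPKM (log axis) of each of the 40 members, each point 1 library, with 3 control libraries and 3 with cartilage fragments; open circles stand for values listed at 0. Pcna lies alone above 130 FPKM, and the points of the groups are interleaved for most genes.

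Of the 40 members, 28 had a mean of at least 1 FPKM and were tested with all other genes by limma on log2(FPKM + 0.1). None of the 28 passed an adjusted p of 0.05, where 39 of 10392 tested genes passed (0.375%), 0.308% higher and 0.0674% lower with cartilage fragments. The adjusted p-values of the members ran from 0.477 to 0.994. At an unadjusted p under 0.05 stood 2 members, Tpx2 and Cdt1, or 7.14% of those tested beside 9.33% of all tested genes. The libraries of the groups did not overlap in 2 members, Tpx2 and Ccnd1, both higher with cartilage fragments, where 9.06% of all tested genes were higher and 6.89% lower without overlap (16.0% together). The members' shares were thus no larger than those of the background.

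The precision of a fold change differed with the level of the gene. For Pcna the log2 fold change of cartilage fragments against control was -0.18, with a 95% confidence interval of -0.45 to 0.10. For Mki67 it was 0.33, with an interval of -0.25 to 0.90. For Ube2c the interval ran from -0.11 to 6.88, which excludes hardly any rise.

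**Figure D3:**
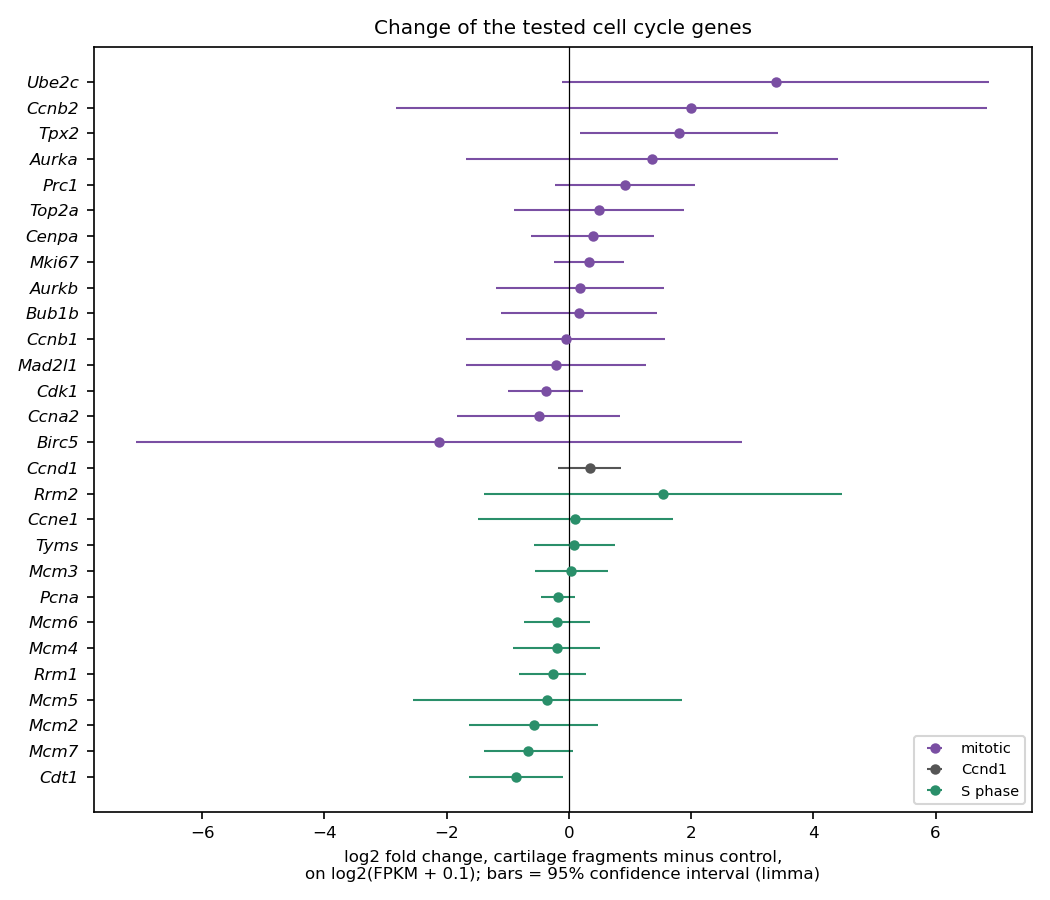
Log2 fold change (cartilage fragments minus control, on log2(FPKM + 0.1)) of the 28 tested members with its 95% confidence interval from limma, 15 mitotic genes on top, Ccnd1, then 12 S-phase genes. All intervals but those of Tpx2 and Cdt1 include 0.

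Replication starts with licensing, when Cdt1 and Cdc6 load the Mcm2 to Mcm7 helicase onto origins. Cdt1 (chr8:122568015-122573130) stood at 9.82, 11.4 and 13.0 FPKM in control macrophages and at 5.41, 4.23 and 10.2 FPKM with cartilage fragments. Only the third library with cartilage fragments reached the control range. The log2 fold change was -0.87 ± 0.33 (SE, n = 3 against 3), and it did not pass (limma, adjusted p = 0.477). Cdc6, the partner of Cdt1, was read in 2 libraries only, at 0.93 FPKM in control 2 and 0.65 FPKM in the second library with cartilage fragments.

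The 6 subunits of the helicase differed in level, from Mcm6 at 10.3 FPKM down to Mcm5 at 1.21 FPKM over all libraries. Mcm7 (chr5:138164589-138171862) stood at 7.12, 6.71 and 4.96 FPKM in control macrophages and at 5.52, 3.20 and 3.30 FPKM with cartilage fragments. Its log2 fold change of -0.66 ± 0.32 (SE) did not pass the test (limma, adjusted p = 0.58), and control 3 lay within the range of the other group. Mcm2 stood at 3.70, 2.95 and 5.15 FPKM against 3.81, 3.09 and 1.37 FPKM, so that 1 library with cartilage fragments lay below all others. Mcm3 stood at 9.41 ± 2.58 FPKM (SD, n = 3) in control macrophages and 9.50 ± 1.46 FPKM (SD, n = 3) with cartilage fragments. Mcm4 stood at 4.46 ± 0.14 and 3.96 ± 1.13 FPKM (SD, n = 3 each). Mcm5 ranged from 0.40 to 2.08 FPKM in control and from 0.43 to 1.80 FPKM with cartilage fragments. None of these helicase genes passed.

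Mcm6, whose promoter holds the E2F-type letters at 2 places, needed a closer reading. It stood at 9.16, 9.42 and 14.6 FPKM in control macrophages and at 9.46, 9.30 and 9.65 FPKM with cartilage fragments. In the second library with cartilage fragments, 6.91 of the 9.30 FPKM came from a transcript that Cufflinks had assembled without a gene symbol at chr1:128333443-128359656, inside the Mcm6 locus at chr1:128331591-128359656. On reference transcripts alone that library read 2.39 FPKM, and the log2 fold change was -0.83 in place of -0.19. Neither passed the test (limma, adjusted p = 0.797 and 0.838).

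The enzymes that supply deoxynucleotides did not pass either. Rrm1, the large subunit of ribonucleotide reductase, stood at 7.03 ± 0.46 FPKM (SD, n = 3) in control macrophages and 5.89 ± 1.04 FPKM (SD, n = 3) with cartilage fragments. Rrm2, its S-phase subunit, was read at 2.63 and 2.06 FPKM in 2 control libraries, was listed at 0 in control 2, and was read at 4.08, 1.42 and 2.20 FPKM with cartilage fragments. Tyms, which makes thymidylate, stood at 4.56 ± 1.03 and 4.79 ± 0.47 FPKM (SD, n = 3 each), a log2 fold change of 0.09 with an interval of -0.57 to 0.75. Ccne1, the cyclin of S-phase entry, varied more within control macrophages (2.23, 0.76 and 5.43 FPKM) than between the groups, with 3.07, 2.40 and 1.65 FPKM after cartilage fragments.

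Ccnd1, the cyclin that M-CSF induces in G1 (chr7:144929931-144939925), stood at 7.97, 5.95 and 8.70 FPKM in control macrophages and at 9.34, 9.74 and 9.26 FPKM with cartilage fragments. Every library with cartilage fragments lay above every control library. The difference was 0.34 ± 0.22 on the log2 scale (SE), from about 61 and 73 fragments, and did not pass (limma, adjusted p = 0.694).

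Among the mitotic genes, the cyclins and their kinase drive entry into mitosis. Cdk1 (chr10:69336635-69352912) stood at 5.88, 8.06 and 7.16 FPKM in control macrophages and at 4.55, 6.85 and 4.90 FPKM with cartilage fragments. The group ranges overlapped, at a log2 fold change of -0.38 ± 0.27 (SE). Ccna2, the cyclin of S and G2, stood at 3.05 ± 1.48 and 2.16 ± 1.10 FPKM (SD, n = 3 each). Ccnb1, the main mitotic cyclin, stood at 1.26 ± 0.03 and 1.33 ± 0.68 FPKM (SD, n = 3 each), from 6 fragments in each group. Ccnb2 was read in control 1 at 0.97 FPKM and in 2 libraries with cartilage fragments, at 3.02 and 2.10 FPKM, and was listed at 0 in the rest. Cyclin A and the B cyclins thus pointed in no common direction, and none passed.

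The anaphase-promoting complex ends mitosis with its activator Cdc20 and the ubiquitin-conjugating enzyme Ube2c. Cdc20 was listed at 0 throughout. Ube2c was read at 5.37 FPKM in control 1, was listed at 0 in the other control libraries, and was read at 3.72, 3.88 and 3.99 FPKM with cartilage fragments, from 2 fragments in each. The highest value of the gene was therefore a control value.

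The mitotic kinases and the chromosomal passenger complex were at the floor of the method. Plk1, which acts on centrosomes and kinetochores, was listed at 0 in all control libraries and read at 0.67 and 1.45 FPKM in 2 libraries with cartilage fragments, from 3 fragments in all. Aurka, the spindle pole kinase, was read at 1.54 and 2.37 FPKM in controls 1 and 2, listed at 0 in control 3, and read at 1.59, 4.14 and 0.85 FPKM with cartilage fragments. Aurkb, the kinase of the passenger complex, stood at 1.76 ± 0.86 and 1.85 ± 0.39 FPKM (SD, n = 3 each). Its partner Birc5 (survivin) went the other way in the fit, read at 3.38 and 8.86 FPKM in 2 control libraries and at 3.67 FPKM in 1 library with cartilage fragments, and listed at 0 in the other 3. The fitted log2 fold change of -2.12 had an interval of -7.08 to 2.83.

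The spindle checkpoint genes gave no difference beyond their spread. Bub1b (BubR1) stood at 1.54 ± 0.42 and 1.74 ± 0.47 FPKM, and Mad2l1 at 2.93 ± 1.36 and 2.79 ± 1.65 FPKM (SD, n = 3 each). Bub1, their kinase partner, ranged from 0 to 0.66 FPKM in control macrophages and from 0 to 2.10 FPKM with cartilage fragments. Cenpa, the histone of the centromere, stood at 5.61, 3.99 and 5.24 FPKM in control macrophages and at 3.11, 9.26 and 9.25 FPKM with cartilage fragments, so that the libraries with cartilage fragments lay on both sides of the control range. The kinetochore proteins Cenpe and Cenpf did not exceed 0.85 and 0.38 FPKM in any library.

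Tpx2, which activates Aurka and nucleates spindle microtubules (chr2:152847964-152895321), had the smallest p among the mitotic genes. It stood at 0.98, 0.34 and 0.69 FPKM in control macrophages and at 2.37, 3.18 and 1.83 FPKM with cartilage fragments. Every library with cartilage fragments lay above every control library. The log2 fold change was 1.80 ± 0.70 (SE), from about 6 and 21 fragments, and did not pass the test across all genes (limma, adjusted p = 0.491). Prc1, which bundles microtubules of the central spindle, stood at 0.95, 1.46 and 2.48 FPKM and at 2.28, 3.06 and 3.69 FPKM, and 1 control library lay within the other group (limma, adjusted p = 0.625).

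The motors of the spindle and midzone were below the level tested. Kif11 ranged from 0.29 to 0.88 FPKM in control macrophages and from 0.29 to 1.21 FPKM with cartilage fragments. Kif23, a motor of cytokinesis, stood at 1.21, 0.42 and 1.69 FPKM in control macrophages, was listed at 0 in the first library with cartilage fragments, and was read at 0.43 and 0.45 FPKM in the others. Kif20a was read in control 2 alone, at 1.68 FPKM. Nusap1, a microtubule-bundling protein, did not exceed 1.09 FPKM.

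Mki67 (chr7:135689788-135716379) and Top2a, the topoisomerase that untangles sister chromatids, are the usual markers of cycling cells. Mki67 had the most fragments of any mitotic gene and stood at 7.77, 8.79 and 5.23 FPKM in control macrophages and at 8.55, 9.06 and 9.22 FPKM with cartilage fragments. Control 3 was low and the other 5 libraries were close together. Its difference was 0.33 ± 0.25 on the log2 scale (SE) and did not pass (limma, adjusted p = 0.738). Top2a stood at 1.30, 1.07 and 1.63 FPKM and at 1.07, 3.07 and 2.02 FPKM, with overlapping groups.

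Set against each other, the tested S-phase genes had a median log2 fold change of -0.20, with 8 of 12 below 0 and 4 above. The tested mitotic genes had a median of 0.33, with 10 of 15 above 0 and 5 below. All tested genes had a median of 0.003, and 50.5% of them were above 0. No member passed after adjustment over all tested genes, though the unadjusted intervals of Tpx2 and Cdt1 excluded 0. The medians were not tested, so their signs are a description. Without control 3, the medians were -0.07 and 0.11.

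Summed fragments of the members gave the same order. The 15 S-phase genes together held 326, 302 and 388 fragments per 1000000 fragments of the library (FPM) in control macrophages and 297, 287 and 283 with cartilage fragments, so that every library with cartilage fragments lay just below the lowest control library. The ratio of cartilage fragments to control was 0.855, with an exact interval of 0.768 to 0.952 that covers counting error only, and it was 0.92 without control 3. The 14 S-phase genes other than Pcna gave a ratio of 0.835. Such separation of a sum was not particular to these genes. Among the lists described below, sums of CDK inhibitors (ratio 1.19), the E2F and DREAM list (1.06) and further mitotic genes (1.05) separated upward. The fibroblast sum (0.68) separated downward. Sums of further replication genes, other G1 cyclins and CDKs, and p53 targets overlapped. The 24 mitotic genes together held 166, 172 and 131 FPM in control macrophages and 157, 215 and 189 with cartilage fragments, and these groups overlapped. Their ratio was 1.19, with an interval of 1.03 to 1.38, and 1.10 without control 3.

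The balance of the groups of genes depended on control 3 to a large degree. S-phase fragments outnumbered mitotic fragments 1.96, 1.75 and 2.97 times in control macrophages and 1.90, 1.33 and 1.50 times with cartilage fragments. Control 3 had the highest S-phase sum and the lowest mitotic sum, with 10 of the 24 mitotic genes listed at 0. On the scale of log2(FPKM + 0.1), the mean of the S-phase genes minus that of the mitotic genes was 1.20, 1.41 and 2.44 in control macrophages and 1.64, 0.75 and 1.22 with cartilage fragments. The difference of the group means was -0.48, and -0.10 without control 3. It was not tested. Single libraries of a group spread with an SD of 0.56, which is not the error of a difference of means. In bulk samples, fewer cycling cells and less RNA per cycling cell cannot be told apart.

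**Figure D4:**
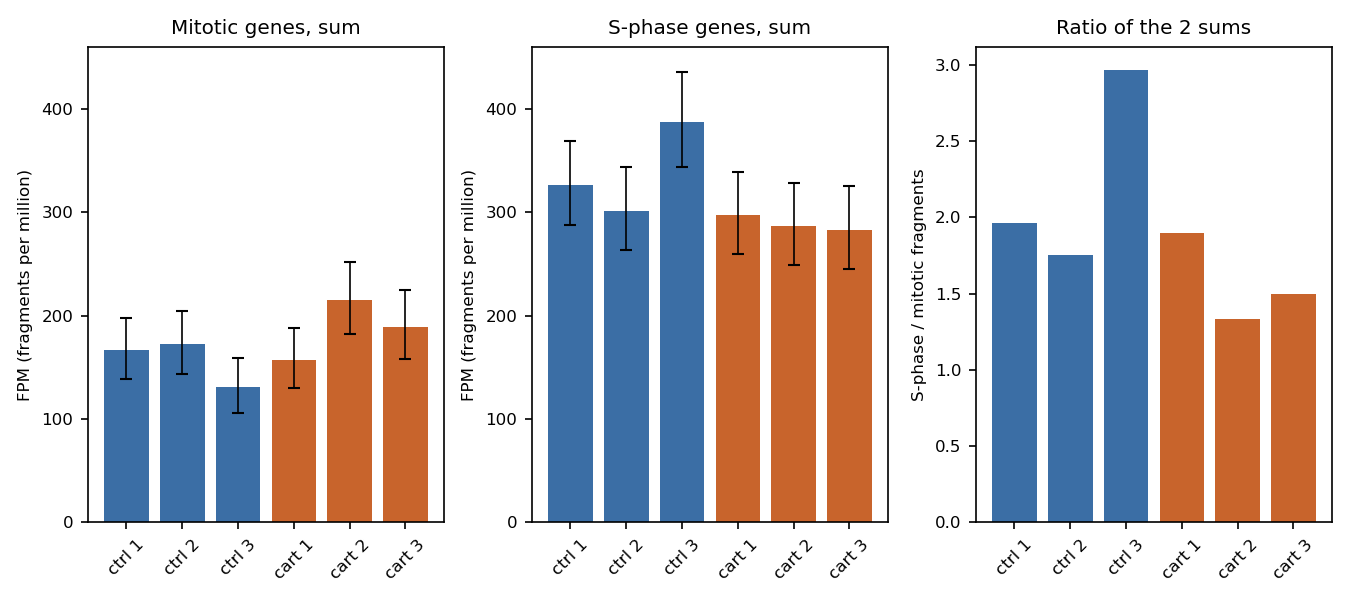
Fragments per 1000000 library fragments (FPM) summed over the 24 mitotic genes (left) and the 15 S-phase genes (middle) in each of the 6 libraries, with exact 95% Poisson intervals that cover counting error only, and the ratio of both sums (right). Control 3 stands apart with a ratio of 2.97, while the other libraries lie between 1.33 and 1.96.

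Other genes of the same machinery were taken from fixed lists, and none passed the test of limma in any of the 6 lists. At an unadjusted p under 0.05 stood 2 of 41 replication genes, 3 of 24 mitotic genes, 0 of 7 G1 cyclins, CDKs and regulators, 2 of 7 CDK inhibitors, 1 of 17 genes of the E2F and DREAM list and 1 of 12 targets of p53, beside 9.33% of all tested genes. Of 55 further replication genes 41 were tested, 20 above 0 and 21 below, with a median log2 fold change of -0.03 (-0.04 without Pold2). Their summed fragments did not show the lower level of the S-phase members. The ratio of cartilage fragments to control was 1.00, with a counting interval of 0.93 to 1.08, and the groups overlapped. The highest were Pold2, Pole2 and Cdc45, of which Pold2, a polymerase delta subunit, was listed at 0 in 4 libraries and read at 5.74 and 7.12 FPKM in 2 with cartilage fragments. Pole2, of polymerase epsilon, had a log2 fold change of 3.40 and Cdc45, a partner of the Mcm helicase, of 2.51, from 13 fragments each. The lowest were Gmnn (-1.11), Gins3 (-0.71) and Dbf4 (-0.69). Gins3 was listed at 0 in the second library with cartilage fragments, yet held 5 fragments in each group. Gmnn encodes geminin, the inhibitor of Cdt1, and stood at 16.8, 20.9 and 15.8 FPKM in control macrophages and at 8.74, 3.64 and 16.9 FPKM with cartilage fragments, and the first and second libraries with cartilage fragments were low, as for Cdt1.

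Of 64 further mitotic genes only 24 were tested, 15 above 0 and 9 below, with a median log2 fold change of 0.23 (0.25 without Cenpw). Summed, the 64 genes held 449 to 476 FPM in control macrophages and 477 to 501 with cartilage fragments. The ratio was 1.05, with a counting interval of 0.96 to 1.15. The highest were Gtse1 (1.65), Cdca5 (1.24) and Kif22 (1.18). The lowest were the centromere genes Cenpw and Cenpk and the condensin gene Ncaph (-0.80). Ncaph was listed at 0 in the first library with cartilage fragments, yet held 7 fragments in control macrophages and 10 with cartilage fragments. Cenpw stood at 1.99, 1.02 and 3.12 FPKM in control macrophages and was listed at 0 in all libraries with cartilage fragments, from 6 fragments in all. Cenpk stood at 4.51, 2.64 and 2.36 FPKM in control macrophages and was read in 1 library with cartilage fragments, at 1.32 FPKM (limma, adjusted p = 0.416). Both lists held genes that pointed either way.

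Upstream of the members, none of the 7 genes for other G1 cyclins, CDKs and their regulators passed, and adjusted p-values started at 0.769. The highest log2 fold changes were those of Ccnd2 (0.47), Cdk2 (0.25) and Cdc25a (0.22), and the lowest those of Myc (-1.18), Cdk6 (-0.35) and Ccnd3 (-0.10). Of 20 genes for pocket proteins, E2F factors and the DREAM complex 17 were tested, 12 above 0 and 5 below. E2f5 (0.94), E2f8 (0.63) and Rbbp4 (0.61) were highest, and Lin52 (-1.32), Tfdp2 (-0.63) and E2f3 (-0.62) were lowest. E2f5 and Tfdp2 changed sign on reference transcripts alone, at -1.15 and 0.80, and Rbbp4 stood at 0.13. In the second library with cartilage fragments, 45.7 of the 71.8 FPKM of Rbbp4 came from an assembled transcript.

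The smallest p of the 6 lists was that of a CDK inhibitor. Cdkn1c (p57, chr7:143458339-143461050) stood at 10.7, 10.2 and 16.7 FPKM in control macrophages and at 6.33, 4.95 and 4.26 FPKM with cartilage fragments. All libraries with cartilage fragments lay below all control libraries, at a log2 fold change of -1.24 ± 0.28 (SE), which did not pass (limma, adjusted p = 0.139). Cdkn1a (p21, chr17:29090986-29100722) stood at 88.3, 110.5 and 90.0 FPKM in control macrophages and at 128, 113 and 117 FPKM with cartilage fragments, higher in each. Its log2 fold change of 0.32 ± 0.12 (SE) did not pass (limma, adjusted p = 0.443). In control 2, 37.1 of the 110.5 FPKM came from an assembled transcript of 592 bases that held about 10.6 fragments. In the first library with cartilage fragments, 32.3 of the 128 FPKM came from another, with about 40.4 fragments. On reference transcripts alone the log2 fold change of Cdkn1a was 0.37 and did not pass (limma, adjusted p = 0.698). On fragments scaled to the library total it was 0.46 and passed (limma, adjusted p = 0.0119), in a setting where 2.62% of all genes passed. The part of the assembled transcripts in this was not tested.

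Of the other CDK inhibitors, Cdkn2c (p18) was read at 1.44 FPKM in control 1 only and at 1.47, 4.66 and 1.58 FPKM with cartilage fragments. Cdkn1b (p27) stood at 16.8 ± 3.46 FPKM in control macrophages and 14.1 ± 2.56 FPKM with cartilage fragments (SD, n = 3 each). Cdkn2d (p19) had a log2 fold change of 0.43, and Cdkn2b and Cdkn2a, the lowest of the list, had values of -1.46 and -1.45 from 8 and 5 fragments. Among 12 further targets of p53, a list that did not hold Cdkn1a, 9 were above 0 and 3 below. Aen (0.37), Sesn1 (0.22) and Bax (0.18) were highest and Btg2 (-0.29), Zmat3 (-0.15) and Gadd45a (-0.08) lowest. Bax, a promoter of apoptosis, stood at 245, 249 and 251 FPKM in control macrophages and at 283, 282 and 279.5 FPKM with cartilage fragments, without overlap (limma, adjusted p = 0.413).

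**Figure D5:**
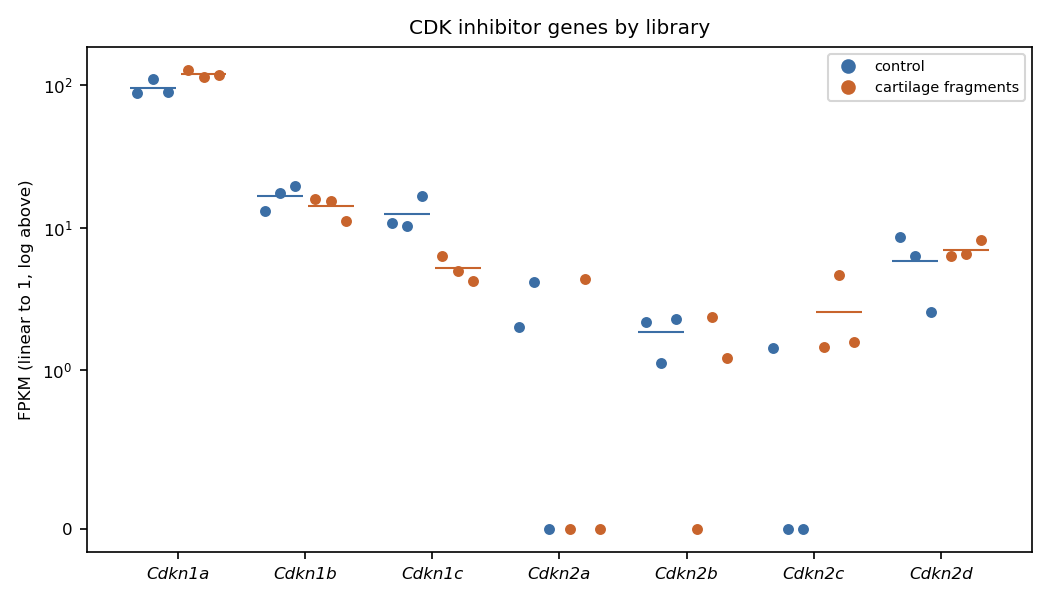
FPKM of the 7 CDK inhibitor genes (linear to 1, log above) in 3 control libraries and 3 with cartilage fragments; lines mark the group mean where no library of that group is listed at 0. Cdkn1a at 88.3 to 128 FPKM is the highest of the 7, and Cdkn1c is the one whose groups separate downward.

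The libraries carried the markers of macrophages. Csf1r, the M-CSF receptor, stood at 569 to 639 FPKM in control macrophages and at 565 to 670 FPKM with cartilage fragments. Of 9 macrophage markers, Adgre1 (F4/80) and Cd14 passed, both higher with cartilage fragments, and were named after their values were seen. On reference transcripts alone neither passed (limma, adjusted p = 0.62 and 0.761). Without the first or the second library with cartilage fragments Adgre1 did not pass (limma, adjusted p = 0.0807 and 0.0554), and Cd14 did not pass without any 1 of the 6 libraries (limma, adjusted p from 0.0551 to 0.192). The 13 chondrocyte markers together held between 3 and 13 fragments in any library. Among them Acan was read in control 1 only, at 0.36 FPKM, and Col2a1 did not exceed 1.22 FPKM. Mpo and Elane, markers of myeloid progenitors, which also divide, did not exceed 1.88 FPKM, and all 8 erythroid markers were listed at 0. The 7 fibroblast markers together held 726 to 793 FPM in control macrophages and 488 to 551 with cartilage fragments. Most of this sum of 1723 and 1123 fragments came from Col1a1 (800.6 and 462.8) and Col1a2 (866.5 and 621.6). Col3a1 held 37.9 and 20 fragments and Lum 2 and 0. Dcn (10 and 12), Pdgfra (4 and 5) and Thy1 (1 and 1) were not lower. Col1a1 had a log2 fold change of -0.72 (limma, adjusted p = 0.081). On scaled fragments Col1a1 and Col1a2 both passed (limma, adjusted p = 1.93e-06 and 0.00325). The fibroblast sum was lower with cartilage fragments, as was the S-phase sum, and its part in the latter was not tested. The 12 markers of myeloid progenitors and neutrophils together held 312 to 381 FPM in control macrophages and 278 to 397 with cartilage fragments. Of these 12, 7 averaged below 1 FPKM, Mpo and Elane among them. The other 5 were S100a8 (means of 318 FPKM in control macrophages and 377 with cartilage fragments), S100a9 (443 and 391), Ngp (62.8 and 62.4), Ltf (30.4 and 25.1) and Camp (13.7 and 22.8). The 7 lymphocyte markers held between 1.34 and 6.50 FPM in any library.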

How the data were processed

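RNA of 6 macrophage cultures, 3 control and 3 with cartilage fragments, was read by stranded paired-end sequencing. Per the labels and the paper's methods, TopHat and Bowtie were used by the authors for alignment to mm10 and Cufflinks for quantification, and the deposited FPKM and coverage signal are Cufflinks values per transcript. Versions of these tools are not given in the sources used here. TMM scaling and a low-FPKM filter are named in the methods, and neither could be seen in the values.

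FPKM were summed per gene symbol over reference transcripts and over assembled transcripts whose Cufflinks locus held 1 symbol. The assembled transcripts held 15.8% to 20.0% of the FPKM of a library. Among the members this touched Mcm6 alone. Fragments were estimated from coverage and length, and 93.4% to 94.4% of low values came within 0.1 of a whole number. Intervals on fragments cover counting error only. Cufflinks marked 770 to 795 transcripts with an FPKM status other than OK in each library but control 1, where it marked 0. The status was not used as a filter, and its part in values listed at 0 was not tested.

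Groups were compared for genes that averaged 1 FPKM or more, using limma 3.58.1 under R 4.3.3 (eBayes with trend and robust) on log2(FPKM + 0.1), two-sided, with Benjamini-Hochberg adjustment over all 10392 tested genes and a threshold of 0.05. A fold change on this scale tends to understate that of low genes read in every library. Where some libraries were listed at 0 it depends on the pseudocount and can be larger than on fragments. For Ube2c it was 3.38, and 1.45 on scaled fragments. No permutation of 3 against 3 can go below p = 0.1. Nothing says whether cultures of a group came from separate mice, so p-values measure the spread between these samples, which may be technical. The members and lists were chosen with earlier results of these data known. All members are named; of other lists, the 3 highest and 3 lowest log2 fold changes, and of markers the sums and defining genes. Promoter windows are from RefSeq (GRCm38.p6). Alternatives changed the pseudocount (0.01 or 1), filter (none or 5 FPKM), scaling, variance moderation, transcripts, unit and block, or left out each library. Tables were made in Python 3.11.15 (numpy 2.4.6, pandas 2.3.3, and scipy 1.17.1 for intervals) and figures in matplotlib 3.10.9.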

Additional observations from a re-analysis of the deposited data

How the results depend on the processing

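Under the 16 alternatives, none of the 28 tested members passed an adjusted p of 0.05, and the median log2 fold change of the S-phase genes stayed below 0 and that of the mitotic genes above 0. Leaving out 1 library at a time moved the mitotic median between 0.11 and 0.44 and the S-phase median between -0.26 and -0.07, with the values nearest 0 reached without control 3, and moved the S-phase minus mitotic difference between -0.72 and -0.10. The number of all genes called, 39 in the main comparison, was 18 without trend and robust moderation, 19 on reference transcripts only, 272 on scaled fragments, and 9 to 30 when 1 library was left out (9 without the first library with cartilage fragments). With the replicate block it was 18, but same-numbered libraries deviated together at correlations of only -0.01, -0.007 and 0.01, so the numbers are not taken to pair the libraries.

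The sign of the log2 fold change turned in some alternatives for 10 of the 28 members, none of which was called. Ccnb1 turned at a pseudocount of 1 (0.000934). When 1 library was left out, values ran from -0.39 to 0.36 for Ccnb1, -0.084 to 2.23 for Aurka, -0.29 to 0.43 for Aurkb, -0.031 to 0.39 for Bub1b, -0.55 to 0.44 for Mad2l1, -0.58 to 0.76 for Ccne1, -0.16 to 0.24 for Mcm3, -1.01 to 0.088 for Mcm5, -0.31 to 0.027 for Mcm6 and -0.10 to 0.22 for Tyms. Among other genes they ran from -0.37 to 0.16 for Ccnd3, -0.10 to 0.51 for Cdc25a, -0.049 to 2.24 for Cdca5, -0.015 to 0.46 for Cdk2, -0.94 to 0.52 for Cdk6, -0.071 to 0.78 for Cdkn2d, -0.24 to 0.13 for Gadd45a, -1.55 to 0.63 for Gins3, -2.48 to 0.26 for Lin52, -2.14 to 0.25 for Myc and -2.25 to 0.61 for Ncaph. On reference transcripts only, Ccnd3 turned to 0.23, E2f5 to -1.15 and Tfdp2 to 0.80. Cdkn1a, Col1a1 and Col1a2 passed on scaled fragments, and Cenpw without trend and robust moderation (limma, adjusted p = 0.0351). The causes were not tested.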
